A study of Mus musculus with 18 samples.

Results

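The genes described here make cholesterol and fatty acids or switch that synthesis on and off. The list was named gene by gene and holds 29 genes, 21 of the sterol branch and 8 of the fatty acid branch. The 168FARN count table holds 24455 genes and 28 of the members, and the LLC1 table holds 24532 genes and all 29. Hmgcs1 in 168FARN was not analysed here. All members present in a table passed the filter on low counts, which kept 13540 genes in 168FARN and 12873 in LLC1.

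RNA was sequenced from mouse cancer cells grown as hanging-drop spheroids by themselves, or together with 3 fibroblasts for each cancer cell, for about 24 hours in drops and then a week on a shaker. 168FARN (168_FARN in the labels) is a breast cancer line and met MMTV-CAFs, cancer-associated fibroblasts of MMTV-PyMT tumours. LLC1, a lung cancer line, met wound healing fibroblasts taken from the dorsal wound area on day 10 after wounding. In the WT groups the fibroblasts carried the control guide sgNS, in the sgPrrx1 groups Prrx1 had been deleted in them with CRISPR/Cas9, and in the alone groups no fibroblast was added. Each of the 6 groups had 3 libraries. The cancer cells carried GFP in every group, were not themselves targeted for Prrx1, and were separated from the fibroblasts by GFP before extraction. Each line met 1 kind of fibroblast, so cancer line and fibroblast source cannot be told apart. The labels do not say that replicates were separate cultures, and p-values then measure only the spread between these libraries, which may be technical.

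Cholesterol is built from acetyl-CoA through mevalonate, isoprenoid pyrophosphates, squalene and lanosterol. Fatty acids are built from the same acetyl-CoA by carboxylation, chain synthesis, elongation and desaturation. SREBP-2 and SREBP-1, encoded by Srebf2 and Srebf1, are membrane-bound transcription factors that are cut free when sterols in the endoplasmic reticulum are low, and then enter the nucleus and switch on both branches. Insig1 holds the complex of SREBP and its escort protein Scap in the endoplasmic reticulum and is itself a target of SREBP. Proliferating tumour cells use both products for membranes.

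Promoter windows, from 250 bases before to 50 after a transcription start, were found for 23 of the 29 members in RefSeq annotation of GRCm38.p6. Fdps, Fdft1, Sqle and Stard4 were among the members without one. The stretches below run 5′ to 3′ on the strand of the gene and cover the 150 bases before the start site. They are shown for Hmgcs1, which opens the mevalonate segment, and for 4 members whose changes are described below. Among the member windows searched, Hmgcs1 held the only match to TCACNCCAC, the 1 form of a sterol regulatory element searched here. Capitals mark matches to the element TCACNCCAC and to the CCAAT box, the letters bound by NF-Y, which appears as ATTGG when it lies on the other strand.
Hmgcs1 (chr13:119690201-119690350, plus strand): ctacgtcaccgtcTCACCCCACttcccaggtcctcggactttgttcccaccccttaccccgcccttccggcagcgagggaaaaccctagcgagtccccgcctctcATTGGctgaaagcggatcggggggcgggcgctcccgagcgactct
Idi1 (chr13:8885456-8885605, plus strand): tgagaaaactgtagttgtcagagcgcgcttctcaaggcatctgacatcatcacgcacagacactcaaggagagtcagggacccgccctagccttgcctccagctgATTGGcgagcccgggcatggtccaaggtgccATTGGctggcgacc
Lss (chr10:76531455-76531604, plus strand): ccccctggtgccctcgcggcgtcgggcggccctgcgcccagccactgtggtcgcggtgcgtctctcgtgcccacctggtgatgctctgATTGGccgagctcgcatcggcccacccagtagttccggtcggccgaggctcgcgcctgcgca
Tm7sf2 (chr19:6067851-6068000, minus strand): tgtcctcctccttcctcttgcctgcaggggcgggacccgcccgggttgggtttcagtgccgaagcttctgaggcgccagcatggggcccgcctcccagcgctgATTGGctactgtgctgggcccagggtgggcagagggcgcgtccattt
Acss2 (chr2:155517893-155518042, plus strand): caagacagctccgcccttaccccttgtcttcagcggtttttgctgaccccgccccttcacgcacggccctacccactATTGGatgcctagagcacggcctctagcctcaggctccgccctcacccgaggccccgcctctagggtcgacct
With both strands searched, a CCAAT box lay in the window of 21 of the 23 member genes, 91.3%, against 41.06% of the 27025 genes with a window. All 17 sterol branch genes with a window held one, and 4 of the 6 fatty acid branch genes did. A GC box, GGGCGG, was found in 82.61% of the member genes and 38.2% of all genes, and an E-box, CACGTG, in 17.39% and 8.093%. The element TCACNCCAC was found in the window of Hmgcs1 alone among the members, 4.348% of them, and in 1.436% of all genes. These motifs can overlap one another at their ends. The values are matches of letters in a fixed window and were read as a description of it.

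Total counts ran from 48315037 to 68933002 per library in 168FARN and from 66129117 to 103997557 in LLC1, and the biological coefficient of variation was 0.0728 and 0.228. One library stood apart: LLC1 sgPrrx1 replicate 3 had a correlation of 0.949 with replicate 1, while the lowest correlation between replicates among the other libraries of that line was 0.988. Counts of members called in LLC1 are therefore given with and without it. Prrx1 lay between 87.2 and 89.7 CPM (the usual unit of counts scaled to a common library total, here with TMM factors) in 168FARN alone, between 127.5 and 130.1 CPM with WT CAFs and between 110.9 and 113 CPM with sgPrrx1 CAFs. In LLC1 it lay between 179 and 227 CPM in 8 libraries and at 114 CPM in sgPrrx1 replicate 3. The deletion was made in the fibroblasts, so this level does not check the labels. The epithelial markers Epcam and Cdh1 had at most 8 counts in any library of either line. In 168FARN the 6 epithelial markers, nearly all of it Krt8, summed to between 329 and 352 CPM alone, 373 and 399.9 CPM with WT CAFs and 427 and 432 CPM with sgPrrx1 CAFs. All 3 tested, Krt7, Krt8 and Krt19, were higher with WT CAFs than alone, and Krt19 averaged 3.09 CPM there and had no count in the other groups. In LLC1 the sum was at most 0.969 CPM, and the 1 tested, Krt18, was higher with WT fibroblasts than alone at no more than 35 counts a library. The part of these transcripts in the results below was not tested.

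The summed level of the members was lower in both cocultures than in cells alone. In 168FARN it lay between 4151 and 4187 CPM alone, between 3454 and 3508 CPM with WT fibroblasts and between 3363 and 3375 CPM with sgPrrx1 fibroblasts. The 3 ranges did not overlap. The order of the cocultures rested on Scd1 and Scd2: without them the sum was 2599 to 2607 CPM alone, 2329 to 2389 CPM with WT fibroblasts and 2386 to 2403 CPM with sgPrrx1 fibroblasts, so the cocultures overlapped and both stayed below cells alone. In LLC1 it lay between 3856 and 4141 CPM alone and between 2964 and 3094 CPM with WT fibroblasts, and it was 3514, 3521 and 2643 CPM in the 3 sgPrrx1 libraries. The first 2 sgPrrx1 libraries thus sat between the other groups and replicate 3 sat below all 8 others. Scd1 and Scd2 together made up 1546 to 1580 CPM of the sum in 168FARN alone. They are close paralogs, and how the counting split reads between them is uncertain. Scd2 held between 78.4% and 79.7% of their reads in every 168FARN library.

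**Figure D1:**
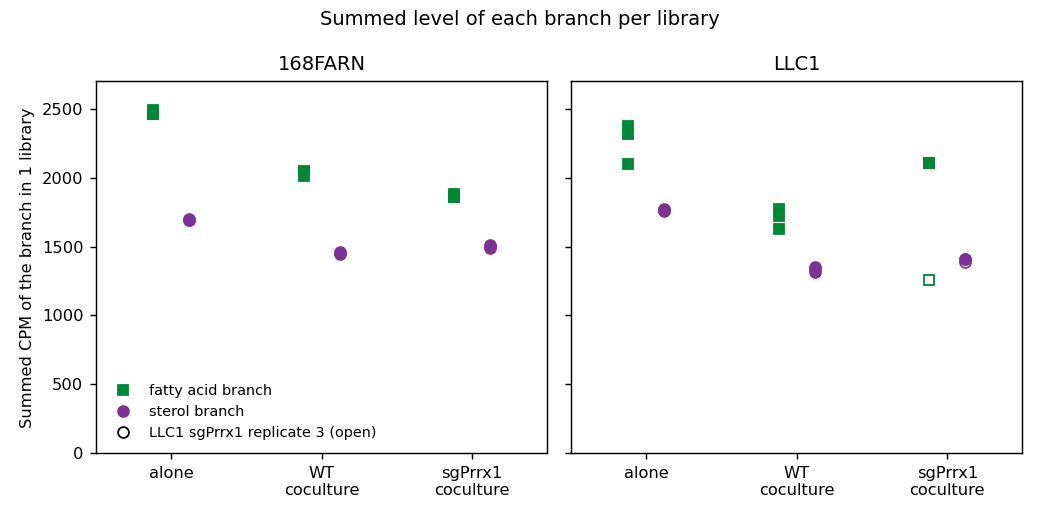
Summed CPM of the sterol branch (circles) and the fatty acid branch (squares) in each library, by group and line, on an axis that starts at 0. In 168FARN the sterol sum was 1690.2 to 1699 CPM alone, 1443 to 1462 with WT fibroblasts and 1489 to 1514 with sgPrrx1 fibroblasts, and in LLC1 the fatty acid sum of sgPrrx1 replicate 3 was 1256 CPM, against 2103 and 2109 in the other 2.

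Compared per kilobase of the longest annotated transcript, Scd2, a stearoyl-CoA desaturase, had the highest level in cells alone in both lines, at 225 CPM per kb in 168FARN and 199 in LLC1. Fdps, which makes farnesyl pyrophosphate, came next at 103 and 122 CPM per kb. The lowest levels were those of Hsd17b7 in 168FARN, at 7.67 CPM per kb, and of Tm7sf2 in LLC1, at 1.35. Tm7sf2, a sterol C14 reductase, stood at 17.4 CPM per kb in 168FARN alone. Hmgcs1 had no transcript length in the annotation used and was left out of this order.

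In 168FARN, most of the genes that make cholesterol were lower with WT CAFs than in cells alone. Of the 28 members, 22 fell and 2 rose at an adjusted p under 0.05 by edgeR's quasi-likelihood test, where 30.7% of all genes tested fell and 33.4% rose. The sterol branch gave 17 lower and 0 higher of 20, with a median log2 fold change of -0.24, against 0.0061 over all genes tested. The exceptions were Fdps at -0.03, Fdft1 (squalene synthase) at 0.01 and Srebf2 at 0.07, which did not pass. All 8 enzymes that turn lanosterol into cholesterol fell, by between 0.11 and 0.93 on the log2 scale. In the fatty acid branch 5 fell and 2 rose of 8, with a median of -0.15. Most of these changes were small: with an absolute log2 fold change of at least 0.5 also required, 2 members passed, Tm7sf2 and Elovl6, against 21.4% of all genes tested. The calls of Mvd, Nsdhl and Ebp were the least stable, each lost with unscaled library totals and without single libraries, namely alone replicates 1 or 2 or WT replicates 1 or 3 for Mvd, alone replicate 1 or WT replicate 2 for Nsdhl, and alone replicate 2 or WT replicates 1 or 2 for Ebp.

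Fibroblast transcripts moved with the groups in these libraries. The 12 fibroblast markers summed to between 140.5 and 145 CPM in 168FARN alone, 1116 to 1199 CPM with WT CAFs and 266 to 274 CPM with sgPrrx1 CAFs. Of the 10 tested, 9 were higher in WT coculture than alone, and all 10 were lower in sgPrrx1 than in WT coculture. Col1a1 averaged 3.74, 161 and 10.4 CPM in the 3 groups, and 3, 1 and 3 of the 12 markers had no count in any library of alone, WT and sgPrrx1. The 6 macrophage and leukocyte markers summed to between 84.7 and 90.7 CPM alone, 74.2 and 75.3 CPM with WT CAFs and 99.2 and 103 CPM with sgPrrx1 CAFs, with no overlap. Against cells alone Csf1r and Cd14 were higher in both cocultures, Cd68 and Lyz2 were lower in both, Ptprc was at 0 throughout and Adgre1 had at most 3 counts. The 5 adipocyte markers summed to between 0.638 and 0.801 CPM alone, 1.62 and 2.05 CPM with WT CAFs and 1.86 and 2.31 CPM with sgPrrx1 CAFs, led by Fabp4, which was higher in both cocultures. The part of these transcripts in the members' changes was not tested, and in sorted bulk samples fewer cells of a type and less RNA per cell cannot be told apart.

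**Figure D2:**
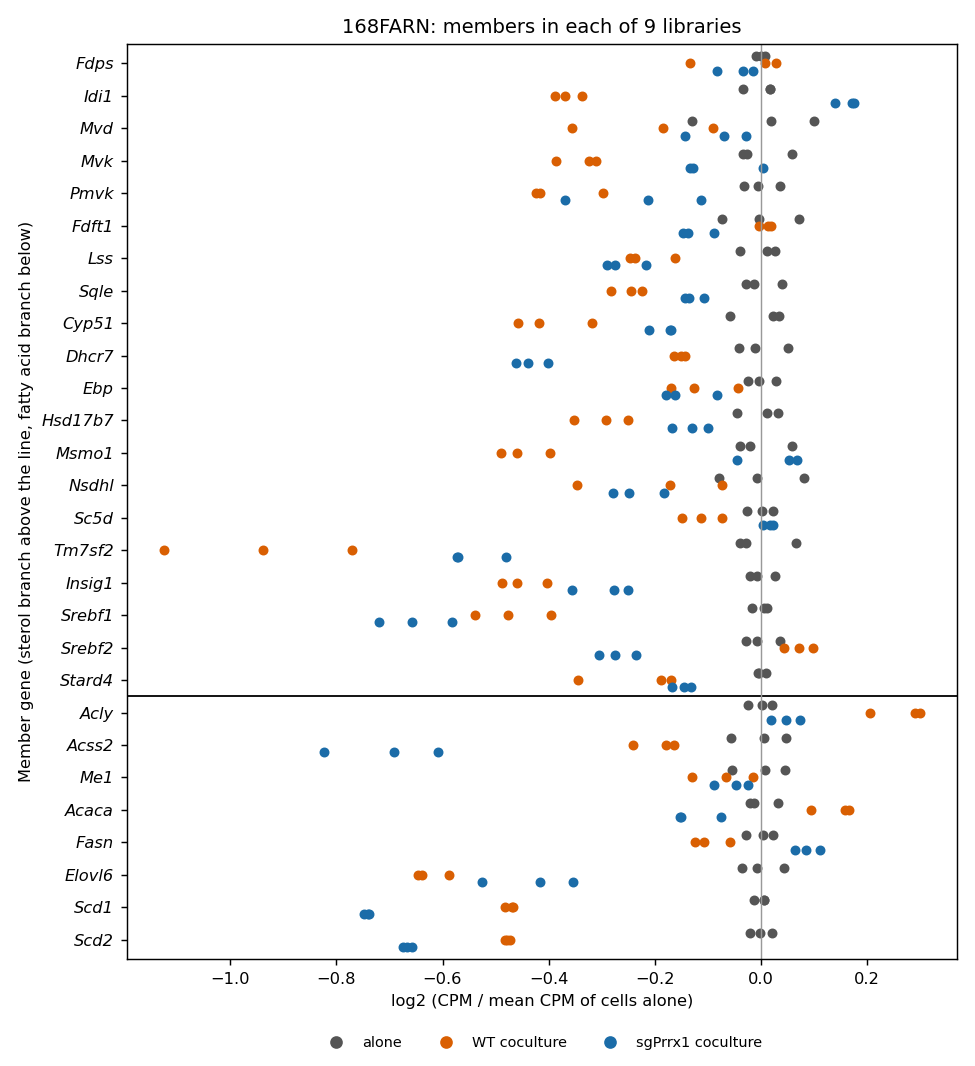
Each point is the CPM of 1 member in 1 of the 9 libraries of 168FARN, as log2 of its ratio to the mean of cells alone, with the sterol branch above the line. Tm7sf2 lay farthest to the left in WT coculture (log2 fold change -0.93), Scd1 and Scd2 lay farther left with sgPrrx1 than with WT CAFs, and Acly and Acaca lay to the right of cells alone with WT CAFs.

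Among the regulators in 168FARN, Srebf1 fell in both cocultures. It stood at 136, 133 and 135 CPM alone, at 102, 96.8 and 92.7 CPM with WT CAFs and at 89.9, 85.4 and 81.7 CPM with sgPrrx1 CAFs. The groups did not overlap, and sgPrrx1 coculture was the lowest. The log2 fold change was -0.47 (SE 0.043, adjusted p = 2.60e-06) for WT against alone, -0.65 (SE 0.043, adjusted p = 3.61e-07) for sgPrrx1 against alone and -0.18 (SE 0.043, adjusted p = 0.00316) for sgPrrx1 against WT. Insig1 stood at 86.2, 84.3 and 83.5 CPM alone, 64.0, 61.6 and 60.4 CPM with WT CAFs and 69.9, 66.2 and 71.2 CPM with sgPrrx1 CAFs. Here WT coculture was the lowest, again with no overlap between groups. It changed by -0.45 (SE 0.035) from alone to WT and was 0.16 (SE 0.035, adjusted p = 0.00278) higher with sgPrrx1 than with WT CAFs.

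Srebf2 went another way. Its 3 libraries gave 239, 232 and 229 CPM alone, 245, 240.4 and 249.6 CPM with WT CAFs and 189, 193 and 198 CPM with sgPrrx1 CAFs. WT coculture lay just above alone without passing the test (log2 fold change 0.07, SE 0.030, adjusted p = 0.0559), and sgPrrx1 coculture lay below both. The fall was -0.27 (SE 0.030, adjusted p = 2.38e-05) against alone and -0.34 (SE 0.030, adjusted p = 2.57e-06) against WT coculture. Stard4, which carries sterols between membranes, fell by 14.8% with WT CAFs. With sgPrrx1 CAFs it fell by 9.78%, and the difference between the cocultures did not pass (log2 fold change 0.08, SE 0.042).

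Along the sterol chain in 168FARN, Tm7sf2 changed most. Its level was 27.3, 25.3 and 25.6 CPM alone, 13.6, 15.3 and 12.0 CPM with WT CAFs and 18.7, 17.5 and 17.6 CPM with sgPrrx1 CAFs. The groups were fully separated, with WT lowest and sgPrrx1 between. It fell by 47.6% with WT CAFs (log2 fold change -0.93, SE 0.075, adjusted p = 9.99e-07). With sgPrrx1 CAFs the log2 fold change against alone was -0.54 (SE 0.074, adjusted p = 0.000126), and the difference between the cocultures was 0.39 (SE 0.076, adjusted p = 0.0010). Idi1, the isopentenyl diphosphate isomerase, stood at 90.7, 93.9 and 93.9 CPM alone, 71.9, 73.5 and 70.9 CPM with WT CAFs and 105, 105 and 102 CPM with sgPrrx1 CAFs. It was lowest with WT CAFs and highest with sgPrrx1 CAFs, and no groups overlapped. Its change was -0.36 (SE 0.027) for WT against alone, 0.16 (SE 0.027, adjusted p = 0.000523) for sgPrrx1 against alone and 0.53 (SE 0.027, adjusted p = 6.35e-08) for sgPrrx1 against WT.

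Msmo1, the methylsterol monooxygenase that acts on the products of lanosterol demethylation, stood at 140.0, 138 and 148 CPM alone, 101, 103 and 108 CPM with WT CAFs and 149, 138 and 147 CPM with sgPrrx1 CAFs. The alone and sgPrrx1 groups overlapped and WT lay below both. It changed by -0.45 (SE 0.041, adjusted p = 2.92e-06) from alone to WT and was 0.47 (SE 0.041, adjusted p = 2.56e-06) higher with sgPrrx1 than with WT CAFs. Dhcr7, which makes cholesterol from 7-dehydrocholesterol, showed the other order. Its level was 91.4, 85.7 and 87.5 CPM alone, 79.5, 78.7 and 79.9 CPM with WT CAFs and 65.1, 64.0 and 66.8 CPM with sgPrrx1 CAFs. The groups did not overlap and sgPrrx1 was the lowest, at -0.43 (SE 0.031, adjusted p = 7.77e-07) against alone and -0.28 (SE 0.031, adjusted p = 1.61e-05) against WT.

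In the fatty acid branch of 168FARN, Elovl6, Scd1 and Scd2 fell with both kinds of CAFs. Elovl6, which elongates palmitate, stood at 75.8, 74.3 and 78.5 CPM alone, 48.9, 48.7 and 50.7 CPM with WT CAFs and 52.9, 57.1 and 59.6 CPM with sgPrrx1 CAFs. It was highest alone and lowest with WT CAFs, with no overlap, at -0.62 (SE 0.043, adjusted p = 2.80e-07) for WT against alone and 0.20 (SE 0.043, adjusted p = 0.00221) for sgPrrx1 against WT. Scd1, a stearoyl-CoA desaturase, stood at 329, 333 and 333 CPM alone, 237, 239.8 and 240.1 CPM with WT CAFs and 199, 198 and 199 CPM with sgPrrx1 CAFs. Each group was tight, and sgPrrx1 lay lowest. The log2 fold change was -0.47 (SE 0.022, adjusted p = 1.73e-08) with WT CAFs, -0.74 (SE 0.023, adjusted p = 8.40e-10) with sgPrrx1 CAFs and -0.27 (SE 0.022, adjusted p = 1.84e-06) between the cocultures. Scd2 stood at 1228, 1212 and 1246 CPM alone, 882, 879.9 and 885 CPM with WT CAFs and 774, 770.2 and 779 CPM with sgPrrx1 CAFs, in the same order as Scd1. Against cells alone it fell by 28.2% with WT CAFs (adjusted p = 8.94e-10) and changed by -0.67 on the log2 scale with sgPrrx1 CAFs (SE 0.016, adjusted p = 1.29e-10).

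The enzymes that supply acetyl-CoA and build the chain were split. Acss2, which makes acetyl-CoA from acetate, stood at 29.1, 30.3 and 31.2 CPM alone, 26.7, 27.0 and 25.5 CPM with WT CAFs and 19.8, 17.1 and 18.7 CPM with sgPrrx1 CAFs. The groups did not overlap, and the step from WT to sgPrrx1 (log2 fold change -0.51, SE 0.054, adjusted p = 1.05e-05) was larger than that from alone to WT (-0.19, SE 0.052, adjusted p = 0.00725). Acly, which makes it from citrate, rose with WT CAFs by 0.27 (SE 0.031, adjusted p = 2.09e-05) and was lower again with sgPrrx1 than with WT CAFs, at -0.22 (SE 0.031, adjusted p = 0.000114). Acaca, acetyl-CoA carboxylase, stood at 123, 127 and 123 CPM alone, 139, 139 and 133 CPM with WT CAFs and 112, 118 and 112 CPM with sgPrrx1 CAFs. WT coculture was the highest and sgPrrx1 the lowest, and the difference between the cocultures was -0.27 (SE 0.034, adjusted p = 4.86e-05). Fasn, the fatty acid synthase, moved against Acly and Acaca, with a log2 fold change of -0.10 (SE 0.026, adjusted p = 0.00747) for WT against alone, and was 0.18 (SE 0.026, adjusted p = 0.000117) higher with sgPrrx1 than with WT CAFs. Me1, a malic enzyme that yields NADPH, passed in none of the 3 comparisons of 168FARN.

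Counted over the members, sgPrrx1 CAFs left 19 lower and 2 higher than in 168FARN alone, against 24.1% lower and 25.7% higher of all genes tested. The 2 higher were Idi1 and Fasn, and the Fasn call (log2 fold change 0.09, SE 0.026, adjusted p = 0.0177) was lost with unscaled library totals and without alone replicate 3 or sgPrrx1 replicate 2. Among the lower members, the calls of Fdft1 (without alone replicate 2, sgPrrx1 replicate 1 or sgPrrx1 replicate 3), Ebp (without sgPrrx1 replicates 2 or 3) and Hsd17b7 (without sgPrrx1 replicate 1) were lost when single libraries were left out. The sterol branch gave 14 lower and 1 higher of 20 and the fatty acid branch 5 lower and 1 higher of 8. Between the cocultures, sgPrrx1 against WT, 11 members were higher and 9 lower, against 26.9% and 33.1% of all genes tested. The branches split: 9 of 20 sterol genes were higher and 4 lower (median 0.12), and 2 of 8 fatty acid genes were higher and 5 lower (median -0.20), where the median of all genes tested was -0.03. The 4 lower sterol branch genes were Srebf2, Dhcr7, Srebf1 and Fdft1, so 2 of them are regulators. With an absolute log2 fold change of at least 0.5 also required, 5 members passed for sgPrrx1 against alone, against 13.4% of all genes tested, and 2, Idi1 and Acss2, for sgPrrx1 against WT, against 16%.

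In LLC1, nearly the whole list lay lower with WT wound healing fibroblasts than in cells alone. Few of these changes passed while sgPrrx1 replicate 3 was in the shared estimate of the spread. The log2 fold change was below 0 for 28 of the 29 members, with a median of -0.40 against -0.02 over all genes tested, and the exception was Ebp, a sterol isomerase, at 0.15 (SE 0.23). At an adjusted p under 0.05, 6 members fell and 0 rose, where 4.58% of all genes tested fell and 4.25% rose. Without sgPrrx1 replicate 3, which enters the shared estimate of the spread, 22 fell and 0 rose, against 22.2% and 22% of all genes, and the median was -0.39. The 6 were Lss, Srebf2, Dhcr7, Nsdhl, Sqle and Acss2. Lss and Acss2 passed under all 18 alternatives. Nsdhl, a sterol dehydrogenase, was lost under 8 of them, and Sqle, squalene epoxidase, at an adjusted p of 0.0498, was lost under 14. Leaving out any 1 of the alone or WT libraries ended the calls of Srebf2, Dhcr7, Nsdhl and Sqle.

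The fibroblast markers moved differently in LLC1. They summed to between 1772 and 1859 CPM alone, 1341 and 1378 CPM with WT fibroblasts and 1575 and 1726 CPM with sgPrrx1 fibroblasts. Col3a1 made up most of this, at means of 1579 CPM in cells alone and 1077 CPM with WT fibroblasts. No fibroblast was added to cells alone, so in this line the sum does not follow added fibroblasts only. Of the 9 tested, 4 were higher with WT fibroblasts than alone and 2 lower. Col1a1 averaged 0.375, 8.60 and 0.681 CPM in alone, WT and sgPrrx1, and 0, 0 and 2 of the 12 markers had no count in any library of those groups. Macrophage and leukocyte markers summed to between 26.8 and 29.2 CPM alone 49.5 and 52.9 CPM with WT fibroblasts and 53.0 and 90.4 CPM with sgPrrx1 fibroblasts, with Ptprc at 3 counts or fewer in every library, and adipocyte markers to at most 2.21 CPM. Cd68, a lysosomal protein of macrophages, led the former at means of 16.2, 36.6 and 46.0 CPM in the 3 groups. Between the cocultures, the median log2 fold change of the 3 macrophage and leukocyte markers tested was 0.33, and 0.02 without sgPrrx1 replicate 3. The part of these transcripts in the members' changes was not tested.

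**Figure D3:**
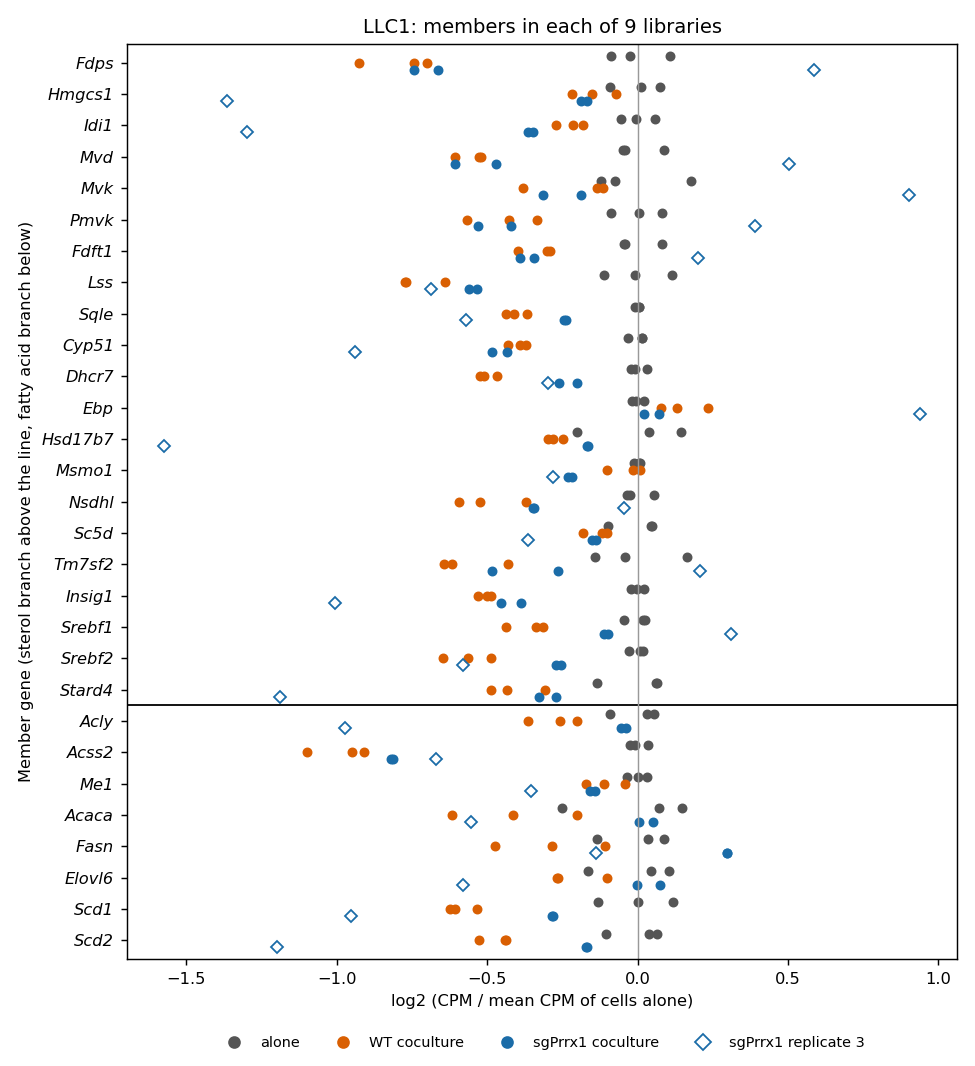
Each point is the CPM of 1 member in 1 of the 9 libraries of LLC1, as log2 of its ratio to the mean of cells alone, with sgPrrx1 replicate 3 as an open diamond. WT coculture lay to the left of cells alone for 28 of 29 members by group mean, and replicate 3 lay outside the range of the other 8 libraries for 22 of 29 members.

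The member with the largest change in LLC1 was Acss2. It stood at 43.3, 42.8 and 44.6 CPM alone, 23.2, 22.6 and 20.3 CPM with WT fibroblasts and 24.7, 24.8 and 27.3 CPM with sgPrrx1 fibroblasts. Cells alone lay far above both cocultures, and WT lay below sgPrrx1 without overlap. It fell by 49.5% with WT fibroblasts (log2 fold change -0.98, SE 0.092, adjusted p = 0.00139) and changed by -0.77 with sgPrrx1 fibroblasts (SE 0.091, adjusted p = 0.00686, lost without alone replicate 1 and in a fit of only the groups compared), and the difference between the cocultures did not pass (0.22, SE 0.091, adjusted p = 0.396). Lss, which closes squalene epoxide into lanosterol, stood at 58.2, 63.3 and 54.1 CPM alone, 34.3, 37.5 and 34.3 CPM with WT fibroblasts and 40.5, 39.7 and 36.3 CPM with sgPrrx1 fibroblasts. The cocultures overlapped and both lay below cells alone, by -0.73 (SE 0.097, adjusted p = 0.00542) for WT and -0.59 (SE 0.096, adjusted p = 0.0195) for sgPrrx1. The latter call was lost without any 1 of the alone libraries, WT replicate 1 or sgPrrx1 replicates 1 or 2, and in a fit of only the groups compared.

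Dhcr7 in LLC1 stood at 28.4, 29.2 and 28.2 CPM alone, 20.7, 20.1 and 19.9 CPM with WT fibroblasts and 23.8, 24.9 and 23.3 CPM with sgPrrx1 fibroblasts. No groups overlapped, and sgPrrx1 lay between the other groups. It fell by 29.3% with WT fibroblasts (adjusted p = 0.00943). Cyp51, the lanosterol demethylase, stood at 86.8, 84.1 and 86.8 CPM alone, 65.5, 63.8 and 66.5 CPM with WT fibroblasts and 61.4, 63.5 and 44.8 CPM with sgPrrx1 fibroblasts. It passed for sgPrrx1 against alone (-0.60, SE 0.13, adjusted p = 0.0439), was lost without any 1 of the other 8 libraries and with the replicate number as a block (adjusted p = 0.0617), and was -0.45 without replicate 3.

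The regulators of LLC1 lay lower with WT fibroblasts than alone. Srebf2 stood at 344, 347 and 336 CPM alone, 231, 244 and 219 CPM with WT fibroblasts and 283, 287 and 229 CPM with sgPrrx1 fibroblasts. It fell by 32.4% with WT fibroblasts (log2 fold change -0.56, SE 0.11, adjusted p = 0.0177), and its first 2 sgPrrx1 libraries lay between the other groups. Srebf1 stood at 78.6, 74.9 and 78.3 CPM alone, 62.1, 61.1 and 57.1 CPM with WT fibroblasts and 71.5, 72.2 and 95.8 CPM with sgPrrx1 fibroblasts. WT lay below both other groups, and replicate 3 of sgPrrx1 was the highest of all 9. Insig1 stood at 172, 174 and 177 CPM alone, 121, 124 and 123 CPM with WT fibroblasts and 133, 127 and 86.8 CPM with sgPrrx1 fibroblasts. Both cocultures lay below cells alone, and replicate 3 was the lowest of all 9. Srebf1 (-0.36, SE 0.13, adjusted p = 0.116) and Insig1 (-0.51, SE 0.15, adjusted p = 0.0774) did not pass for WT against alone, and both did without replicate 3 (adjusted p = 0.000915 and 0.000138).

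For sgPrrx1 fibroblasts against LLC1 alone, 3 members fell, Lss, Cyp51 and Acss2, and 0 rose, against 2.31% and 2.01% of all genes tested. With the replicate number as a block, Lss and Acss2 passed, against 2.96% of all genes in either direction, and in a fit of only the 2 groups compared 0 members passed, against 0.215%. Without replicate 3, 16 fell and 0 rose, against 14.2% and 12.5% of all genes, of which 14 were among the 21 sterol genes and 2, Acss2 and Scd1, among the 8 fatty acid genes. For sgPrrx1 against WT in LLC1, 0 members passed, and 7 genes in all did, 0.0544%. At an unadjusted p under 0.05 there were 5 of the 29 members, against 12% of all genes tested, DESeq2 called 2, against 3.89%, and limma voom with library quality weights called 14, against 36.4%. Without replicate 3, 6 members were higher with sgPrrx1 than with WT fibroblasts and 0 lower, against 2.94% and 2.75% of all genes, with 2 libraries left in the sgPrrx1 group. They were Dhcr7, Srebf1, Srebf2, Fasn, Scd2 and Scd1, with log2 fold changes between 0.25 and 0.57 and adjusted p from 0.0317 to 0.0467.

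In that group, Scd2 showed how far replicate 3 lay from the others. It stood at 962, 963 and 472 CPM with sgPrrx1 fibroblasts, against 799, 797 and 752 CPM with WT fibroblasts and 1111, 1131 and 1006 CPM alone. The first 2 sgPrrx1 libraries lay above all WT libraries and replicate 3 lay below all 8. Fasn stood at 302, 302 and 223 CPM with sgPrrx1 fibroblasts, 202, 228 and 177 CPM with WT fibroblasts and 252, 261 and 224 CPM alone. Fdps went the other way, at 90.1, 95.3 and 227 CPM with sgPrrx1 fibroblasts and 148, 142 and 163 CPM alone. Mvk, mevalonate kinase, did not pass for sgPrrx1 against alone and changed sign with this library, at 0.24 with it and -0.24 without it. In total 8 members were above and 14 below the range of the other 8 libraries in replicate 3, 75.9% of members, against 73.5% of all genes tested.

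**Figure D4:**
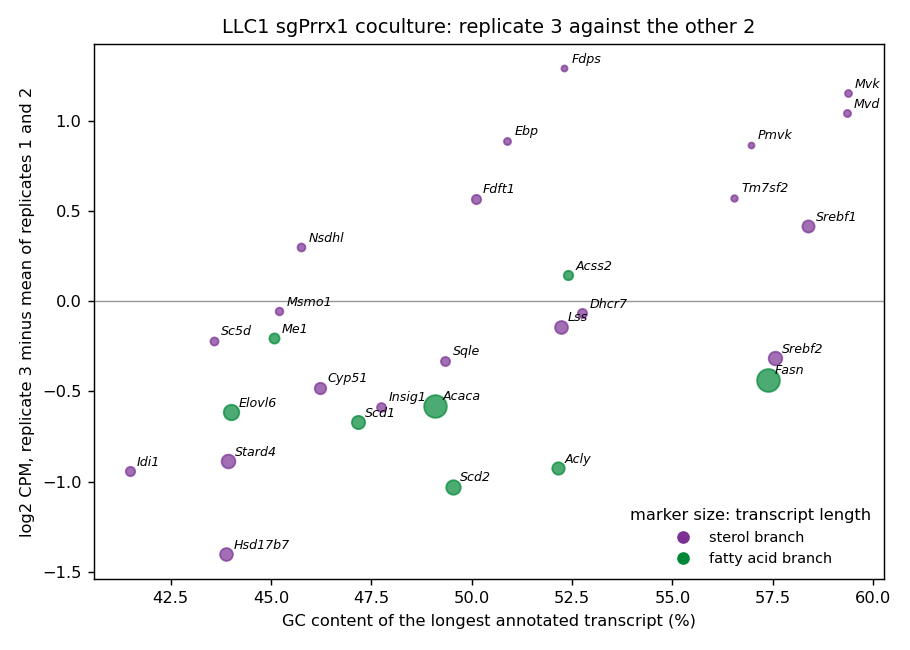
Difference of log2 CPM between LLC1 sgPrrx1 replicate 3 and the mean of replicates 1 and 2, against the GC content of the longest annotated transcript, for the 28 members with an annotated transcript. Spearman's rho was 0.61 with GC content and -0.74 with transcript length over the members, and 0.53 and -0.65 over 11177 genes tested, as a description, since all points share these 3 libraries.

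The lines were compared directly in 1 fit of all 18 libraries over 14344 genes, in which the 28 shared members were tested for a difference in change, given here as 168FARN minus LLC1. For WT coculture against alone, 5 members differed, against 29.4% of all genes tested. The difference was 0.79 (SE 0.10) for Acss2, 0.63 (SE 0.12) for Srebf2, 0.51 (SE 0.10) for Lss and 0.35 (SE 0.076) for Dhcr7, whose changes were the more negative in LLC1, and -0.42 (SE 0.079) for Msmo1, whose change was the more negative in 168FARN. For sgPrrx1 against alone, 3 differed, against 12.1% of all genes. For sgPrrx1 against WT, 6 differed, against 19.3%. The difference was 0.70 (SE 0.079) for Msmo1 and 0.92 (SE 0.25) for Idi1, and it lay between -0.71 and -0.51 for Acss2, Srebf1, Srebf2 and Dhcr7. For these 4, the log2 fold changes were between -0.51 and -0.18 in 168FARN, all called, and between 0.20 and 0.41 in LLC1, none called. Without LLC1 sgPrrx1 replicate 3 the counts were 15, 12 and 15 of 28, against 52.5%, 28% and 44.6% of all genes.

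**Figure D5:**
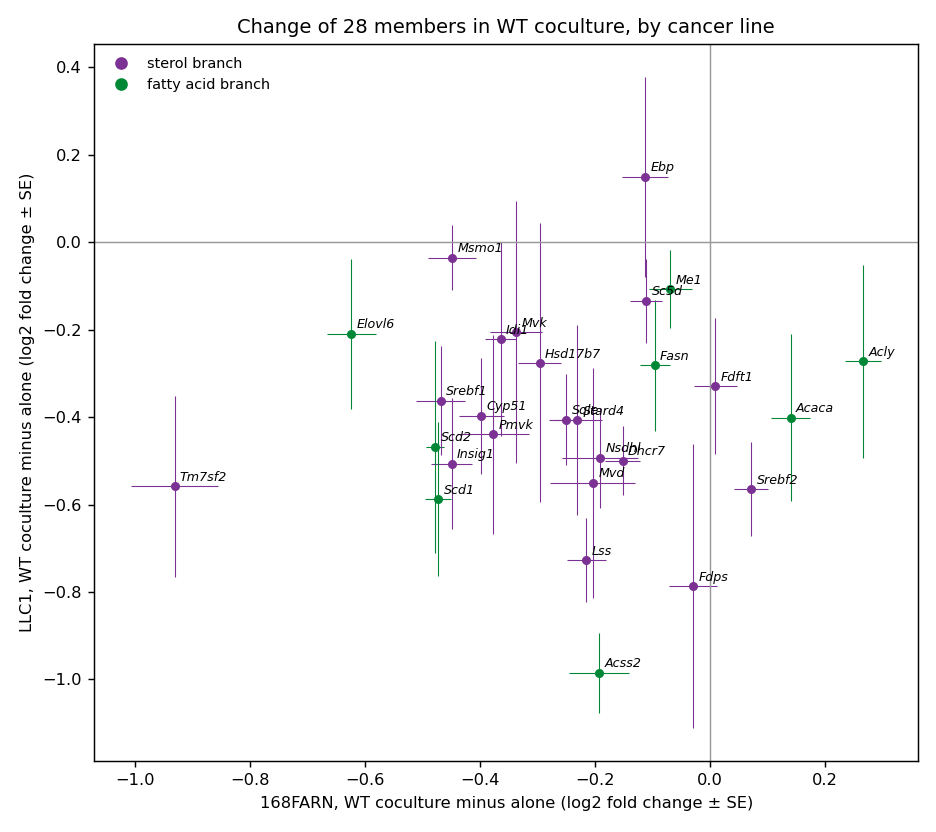
Log2 fold change of each shared member from cells alone to WT coculture, in 168FARN on the horizontal axis and in LLC1 on the vertical axis, with bars of 1 SE and branches by colour. Acss2 lay lowest, at -0.98 in LLC1 and -0.19 in 168FARN, Tm7sf2 lay farthest left, at -0.93 in 168FARN, and the vertical bars are longer than the horizontal ones.

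Other genes of lipid metabolism give the surroundings of these changes. Of 9 further genes of sterol synthesis and handling, 5 fell and 3 rose with WT CAFs in 168FARN, against 30.7% and 33.4% of all genes tested, led by Acat2 (acetoacetyl-CoA thiolase, log2 fold change -0.33, SE 0.038) and Npc1 (lysosomal cholesterol export, -0.26, SE 0.028). With sgPrrx1 against WT CAFs, 3 rose and 3 fell, against 26.9% and 33.1% of all genes, led by Npc2 at 0.55 (SE 0.025), a lysosomal partner of Npc1. With sgPrrx1 CAFs against alone 2 rose and 4 fell, against 25.7% and 24.1%, with Npc2 at 0.64 (SE 0.025) and Npc1 at -0.46 (SE 0.028). The same shares stand behind the 4 genes that escort, hold or cut SREBP, of which 1 rose with WT CAFs in 168FARN, Mbtps2 at 0.15 (SE 0.028), and 2 fell with sgPrrx1 against WT CAFs, the proteases Mbtps1 at -0.28 (SE 0.026) and Mbtps2 at -0.12 (SE 0.028). With sgPrrx1 CAFs against alone 1 fell, Mbtps1 at -0.22 (SE 0.026). Mbtps1 was also lower with WT fibroblasts in LLC1, at -0.47 (SE 0.11, adjusted p = 0.0405).

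Of 5 genes of the sterol sensor LXR and of sterol efflux, 2 rose and 2 fell with WT CAFs in 168FARN, 4 fell with sgPrrx1 against WT CAFs, and 2 fell with sgPrrx1 CAFs against alone. Over all genes tested, 33.4% rose and 30.7% fell in the first of these comparisons, 33.1% fell in the second and 24.1% fell in the third. Nr1h3, which encodes LXR alpha, had the largest of the first (log2 fold change -1.03, SE 0.38) at a mean of 0.626 CPM alone and 0.305 CPM with WT CAFs. Abca1, which exports cholesterol, averaged 9.31 CPM alone, 11.4 CPM with WT CAFs and 3.76 CPM with sgPrrx1 CAFs, a log2 fold change of -1.59 (SE 0.081, adjusted p = 5.49e-08) between the cocultures. Abcg1 followed it at -0.49 (SE 0.10). In LLC1, Mylip, which marks lipoprotein receptors for degradation, changed by -0.48 with WT fibroblasts (SE 0.12, adjusted p = 0.0459). Of 13 further fatty acid and glycerolipid genes tested in 168FARN, 7 rose and 2 fell with WT CAFs, against the same 33.4% and 30.7%, with Acsl4, an acyl-CoA synthetase, at 0.68 (SE 0.13) and Mlxipl, which encodes ChREBP, at 1.36 (SE 0.50) from a mean of 0.102 CPM alone. The desaturases Fads1 at 0.09 (SE 0.025) and Fads2 at 0.17 (SE 0.035) were among the 7. With sgPrrx1 CAFs against alone 1 rose, Acsl4 at 0.47 (SE 0.13), and 10 fell, against 25.7% and 24.1%, with Lpin1, a phosphatidate phosphatase, at -0.62 (SE 0.044). With sgPrrx1 against WT CAFs 10 fell and 0 rose, against 33.1% and 26.9%. Fads2 led these at -0.58 (SE 0.036) and Gpam, which starts glycerolipid synthesis, followed at -0.47 (SE 0.045). In LLC1, 3 of 12 fell with WT fibroblasts, against 4.58% of all genes, with Fads2 at -0.81 (SE 0.14, adjusted p = 0.0139) and Acacb, the mitochondrial acetyl-CoA carboxylase, at -1.99 (SE 0.51, adjusted p = 0.0491) from a mean of 1.35 CPM alone. The calls of Acacb, Mylip and Mbtps1 in this comparison lay near the threshold. Leaving out any 1 alone or WT library lowered the share of all genes called there from 8.83% to at most 3.05%. Without sgPrrx1 replicate 3, 7 of these 12 fell, against 22.2%. With sgPrrx1 fibroblasts against LLC1 alone, 3 of the 12 fell, against 2.31%, among them Fads2 at -0.77 (SE 0.14), and Mylip changed by -0.59 (SE 0.12, lost with the replicate number as a block at an adjusted p of 0.0611), while 0 of 22 genes of the other 3 lipid lists passed by edgeR, against 7 at an unadjusted p under 0.05, where 23.7% of all genes were. A fit of only the groups compared ended the call of Mylip and those of all 3 that fell among the 12. Without replicate 3, 2 of the 22 rose and 3 fell, against 12.5% and 14.2% of all genes. Between the LLC1 cocultures, 0 of 39 genes of these lists passed by edgeR, against 8 at an unadjusted p under 0.05 and 12% of all genes, and 3 rose without replicate 3, against 2.94%.

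Genes of fatty acid oxidation, the route that breaks chains down, fell in 168FARN as well. Of 9 tested, 7 fell and 1 rose with WT CAFs, against 30.7% and 33.4% of all genes tested. With sgPrrx1 CAFs against alone 8 fell and 0 rose, against 24.1% and 25.7%, and with sgPrrx1 against WT CAFs 2 rose and 4 fell, against 26.9% and 33.1%. Slc25a20, which carries acylcarnitines into mitochondria, changed by -0.72 (SE 0.045) with WT CAFs, and Hadhb, a subunit of the trifunctional protein, by -0.60 (SE 0.041). With sgPrrx1 CAFs against alone, Hadha, the other subunit, changed by -0.47 (SE 0.028). Between the cocultures Slc25a20 was 0.46 (SE 0.046) higher with sgPrrx1. In LLC1, 0 of 9 passed for WT against alone by edgeR, and also 0 at an unadjusted p under 0.05, where 24.2% of all genes were, while 1 rose without sgPrrx1 replicate 3, Slc25a20 at 0.32 (adjusted p = 0.00477).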

How the data were processed

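Paired reads of 100 bp were trimmed (Trimmomatic), mapped to mm10 (STAR) and assigned to genes (HTSeq) by the authors. The values they deposited are whole-number counts by gene symbol, taken as raw, in 1 table per line, and all 18 columns were used. The methods also name ComBat-seq, a batch correction that returns whole numbers, after a sentence on human data, and do not say whether these tables went through it. Strand setting and annotation are not given in the sources used here. Groups came from sample titles and characteristics. The tests used edgeR 4.0.16 under R 4.3.3 (filterByExpr, TMM, quasi-likelihood test, two-sided, Benjamini-Hochberg over all genes tested, threshold 0.05). The 9 libraries of a line shared 1 fit, and differences between lines were interaction terms in a fit of 18 libraries. CPM used TMM-scaled totals. Transcript lengths and GC content came from GENCODE M1, and promoters from RefSeq, GRCm38.p6. DESeq2 1.42.0, limma 3.58.1 and other settings were alternatives, 18 per comparison. The steps were tested on simulated data. Deviations from the group means of same-numbered LLC1 libraries correlated at 0.131, 0.249 and 0.419 between alone and sgPrrx1, so a fit with the replicate number as a block is given where it changed a call there.

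The members and lists were chosen with earlier results of these data known. Given library by library, per comparison and branch, are the 3 members with the largest change past the threshold, and Srebf1, Srebf2 and Insig1 throughout. Scd2, Fasn, Fdps and Mvk in LLC1, and Fads1 and Fads2 with WT CAFs, were added after their values were seen. Genes named from the other lists are among the 2 largest changes of their list past the threshold. One result of the further sterol genes in LLC1 is not reported here.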

Additional observations from a re-analysis of the deposited data

Results flagged for a closer look

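In 14 cases, the change of a member differed between the lines by the interaction test (edgeR, adjusted p under 0.05, 168FARN minus LLC1 on the log2 scale). The shares of the 28 members were 17.9%, 10.7% and 21.4% in the 3 comparisons, against 29.4%, 12.1% and 19.3% of all genes tested. Without LLC1 sgPrrx1 replicate 3 the members' shares were 53.6%, 42.9% and 53.6%, against 52.5%, 28% and 44.6%. The cases are given as values of single genes. For WT coculture against alone, the differences were 0.51 for Lss, 0.35 for Dhcr7, -0.42 for Msmo1, 0.63 for Srebf2 and 0.79 for Acss2. All 5 passed under each of 24 alternatives. For sgPrrx1 coculture against alone, they were 0.35 for Lss, 0.28 for Msmo1 and -0.68 for Srebf1, of which Srebf1 passed under each of 24 alternatives, Msmo1 under 16 and Lss under 13. For sgPrrx1 against WT coculture, they were 0.92 for Idi1, -0.51 for Dhcr7, 0.70 for Msmo1, -0.57 for Srebf1, -0.53 for Srebf2 and -0.71 for Acss2, and all 6 passed under each of 24 alternatives. Comparisons share libraries, so a gene that appears in several is not independent evidence. Cancer line and fibroblast source cannot be told apart in any of them.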

How the results depend on the processing

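In 168FARN, the counts of members called stayed within 1.5 times under all alternatives but 1: an absolute log2 fold change of at least 0.5 left 2 (WT against alone), 5 (sgPrrx1 against alone) and 2 (sgPrrx1 against WT). These fits called 21.4%, 13.4% and 16% of all genes. Leaving out 1 library gave 22 to 25, 19 to 21 and 20 to 21, where 59.1% to 62.7%, 43% to 50.9% and 54.4% to 59% of all genes were called. In LLC1, voom with quality weights called 27, 24 and 14, where it called 58.6%, 48% and 36.4% of all genes, and a fit of only the 2 groups called 21 for WT and 0 for sgPrrx1 against alone, where it called 40.7% and 0.215%. DESeq2 called 8 for sgPrrx1 against alone and 2 for sgPrrx1 against WT, where it called 15.1% and 3.89%. Leaving out 1 library gave 2 to 22, 0 to 16 and 0 to 6, each highest without sgPrrx1 replicate 3, where 44.2%, 26.7% and 5.69% of all genes were called. For WT against alone, leaving out any 1 of the alone or WT libraries left 2, with 2.09% to 3.05% of all genes called. For sgPrrx1 against alone, it left 0 without alone replicate 1 and 1 without alone replicates 2 or 3, WT replicate 1 or sgPrrx1 replicates 1 or 2, with 0.398% to 1.29% called. Differences between lines ranged over 5 to 15, 1 to 12 and 6 to 15, again highest without that library (52.5%, 28% and 44.6% of all genes). For sgPrrx1 against alone, 1 was left without 168FARN alone replicates 1 or 2, 168FARN sgPrrx1 replicates 1 or 3, or LLC1 alone replicates 1 or 2 (8.79% to 8.98% of all genes), and 6 and 5 differed without LLC1 sgPrrx1 replicates 1 and 2 (15.9% and 15.4%). There DESeq2 gave 7 and library totals 1, where they called 18.2% and 12.9% of all genes. Of 3078 fold changes of members under the alternatives, 50 had turned sign. Of these, 48 passed in neither setting, 12 of them without LLC1 sgPrrx1 replicate 3 (Mvk among them) and 9 under voom. The other 2 passed only under voom, Srebf1 in LLC1 sgPrrx1 against alone (-0.11) and Acly in LLC1 sgPrrx1 against WT (0.21). The causes were not tested.

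Same-numbered libraries correlated over 0.1 in all 3 pairs in 1 comparison only, LLC1 sgPrrx1 against alone. These 3 values are not independent, since the deviations of a group sum to 0 and sgPrrx1 replicate 3 enters its group mean. They therefore do not show that the libraries were paired. Deviations of same-numbered libraries correlated at -0.0087 on average in 168FARN and 0.15 in LLC1, with 0 and 6 of 9 pairs over 0.1, and the best match carried the same number in 7 and 11 of 18 cases. With the replicate number as a block, 24, 21 and 22 members passed in 168FARN, against 63.2%, 49.1% and 59.4% of all genes, 4, 2 and 0 in LLC1, against 7.99%, 2.96% and 0.0155%, and 7, 4 and 7 of 28 differed between lines, against 32.4%, 14% and 22.1%. In LLC1 the block ended the calls of Nsdhl and Sqle for WT against alone, and of Cyp51 and, outside the members, Mylip and the fibroblast marker Col1a2 for sgPrrx1 against alone.

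The biological coefficient of variation in LLC1, with sgPrrx1 replicate 3 in the fit, was 0.228, against 0.0728 in 168FARN. It limits which changes pass there, at depths of at least 66129117 and 48315037 counts per library. Without that library, 5779 of 13088 genes tested passed for WT against alone in LLC1, against 1137 of 12873 with it.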
